A study of Canis lupus familiaris and Felis catus with 4 samples.

Results

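miR-191 and miR-425 are a pair of miRNAs that lie side by side in the genome and are made from 1 primary transcript, which overlaps the gene DALRD3. A primary transcript is cut into hairpins, each hairpin gives a 5p and a 3p arm, and 1 of the arms is usually kept as the mature miRNA that guides silencing of messenger RNAs. miR-191 is widely expressed and is often used, like miR-103, as a reference to scale miRNA measurements by PCR. It is also known from mouse red blood cell development, where its loss late in maturation precedes enucleation. miR-425 is known in human cells for acting on the messenger RNA of the natriuretic peptide NPPA. A reference of this kind is useful only where it stays steady between the groups compared, and the values here show how far each arm did so in urinary exosomes, the small vesicles that kidney and urinary tract cells release into urine.

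The members were the mature entries mmu-miR-191-5p, mmu-miR-191-3p, mmu-miR-425-5p and mmu-miR-425-3p, 4 of the 2031 mature miRNA entries in the table, selected by name with their read counts already known, so that their levels and their steadiness are a description and no test is given on them. There were 4 libraries of urinary exosome small RNA, each 1 pool: 43 cats with normal renal function (NR), 45 cats with kidney disease (KD), 37 NR dogs and 47 KD dogs. The animals were clinic patients in the case of the cats, of several breeds, and the KD cats had a higher median age than the NR cats. Age and breed of the dogs, and treatment of any animal, were not given in the sources used here, and each pool hides the differences among its animals. No group has a replicate library, and every interval below covers counting error only.

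Mature miRNAs had 18704 reads in NR and 23784 in KD cats, and 20878 in NR and 63355 in KD dogs. Reads of both species were placed on mouse miRNAs, so that the sequences here are those of the mouse (mm10), and a cat or dog miRNA that differs from them can be undercounted. The families miR-10, miR-486 and miR-3107, took 47.9% of the reads in NR and 86.1% in KD cats, and 76.4% in NR and 80.4% in KD dogs. The deposited normalized level of an entry was its read count times 1 factor per library, and this factor was 1.16, 2.36, 0.689 and 0.531 in the same order.

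The mature sequences of the members are shown 5′ to 3′ because they decide which reads can be counted for them, with the seed, bases 2 to 8, in capitals.
miR-191-5p: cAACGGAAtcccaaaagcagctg
miR-191-3p: gCTGCACTtggatttcgttccc
miR-425-5p: aATGACACgatcactcccgttga
miR-425-3p: aTCGGGAAtgtcgtgtccgcc
All 4 lie on the plus strand of mouse chromosome 9, at chr9:108568325-108568347, chr9:108568367-108568388, chr9:108568789-108568811 and chr9:108568830-108568850. The whole stretch spans 526 bases, with 400 bases between the end of miR-191-3p and the start of miR-425-5p, and the nearest other mature entry of the table was miR-711, 401159 bases away. In the dog annotation (RefSeq, UU_Cfam_GSD_1.0) MIR191 and MIR425 are likewise neighbours on chromosome 20, between NDUFAF3 and DALRD3.

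Each member had a single entry in the table, and none was close in sequence to another miRNA. The fewest changed, inserted or deleted bases that turn miR-191-5p into another named entry were 8, to miR-1964-5p, and no other name carried its seed. For miR-425-5p the number was also 8, and its seed was shared with 1 other name, miR-489-3p, which had 0 reads in all 4 libraries. The comparison with another common reference shows why this matters for counting, since miR-103-3p and miR-107-3p differ by 1 base and share a seed.
miR-489-3p: aATGACACcacatatatggcagc
miR-103-3p: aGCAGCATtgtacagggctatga
miR-107-3p: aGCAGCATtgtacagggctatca
miR-103-3p also had 2 entries for its 1 mature sequence, and how reads with several places in the genome were divided is not given in the sources used here.

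miR-191-5p was among the most abundant miRNAs of every library. It had 513 reads in NR cats (95% exact Poisson interval 470 to 559), 355 in KD cats (319 to 394), 307 in NR dogs (274 to 343) and 658 in KD dogs (609 to 710). By reads it stood in place 6 of the 215 entries with a read in NR cats, 6 of 155 in KD cats, 4 of 178 in NR dogs and 9 of 180 in KD dogs. Its lowest count over the libraries was 307, and only 3 entries of the table, miR-10b-5p, miR-10a-5p and miR-30a-5p, had a higher lowest count.

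The order of the 4 libraries depended on the scale. As a share of all mature miRNA reads, miR-191-5p was 2.74% in NR cats (exact binomial interval 2.51 to 2.99%), 1.49% in KD cats (1.34 to 1.65%), 1.47% in NR dogs (1.31 to 1.64%) and 1.04% in KD dogs (0.961 to 1.12%). NR cats were highest on this scale, KD dogs were lowest, and the intervals of KD cats and NR dogs overlapped. As the deposited normalized level it was 594 in NR cats (544 to 648), 837 in KD cats (752 to 928), 212 in NR dogs (189 to 237) and 349 in KD dogs (323 to 377). On that scale KD cats were highest, NR dogs were lowest and no neighbouring intervals overlapped. In read counts, KD dogs were highest, NR dogs were lowest and the intervals of KD cats and NR dogs overlapped.

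**Figure D1:**
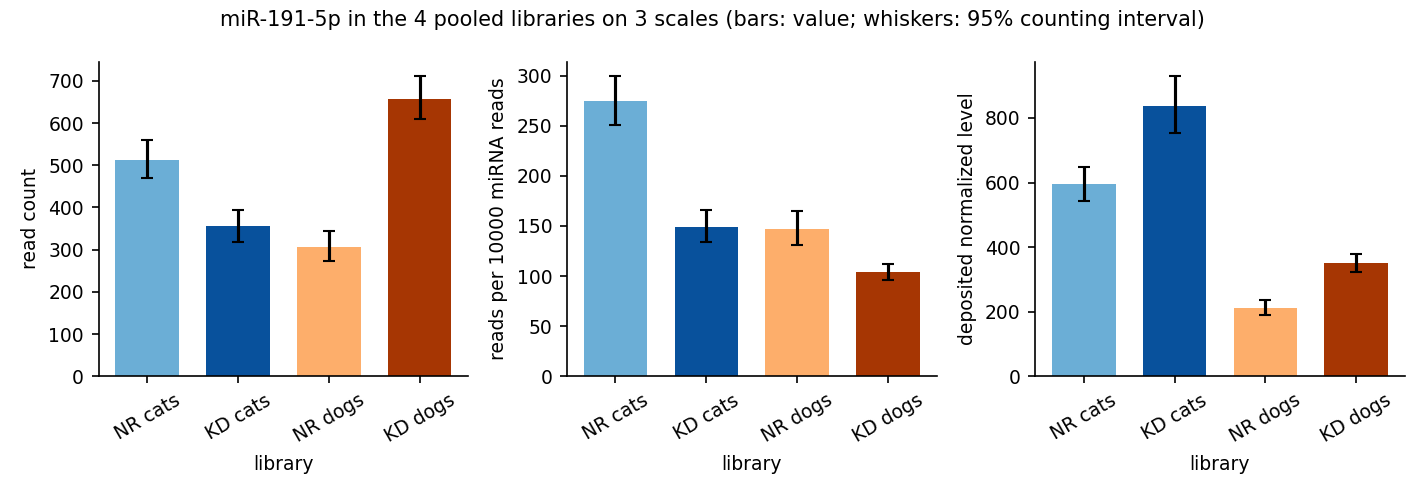
miR-191-5p in each of the 4 pooled libraries as read count, as reads per 10000 mature miRNA reads and as deposited normalized level, with whiskers for the 95% counting interval. The highest library is KD dogs at 658 reads on the left, NR cats at 274 per 10000 in the middle and KD cats at a level of 837 on the right.

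miR-425-5p was hardly measured. It had 9 reads in NR cats (4.12 to 17.1), 0 in KD cats, 2 in NR dogs (0.242 to 7.22) and 6 in KD dogs (2.20 to 13.1), or deposited normalized levels of 10.4, 0, 1.38 and 3.19. It was thus at or under 9 reads everywhere, in place 75 of 215 in NR cats, 102 of 178 in NR dogs and 99 of 180 in KD dogs. Where no read was seen, a floor of 3 reads was used, which in KD cats is a share of 0.0126% of the reads or a level of 7.07. The exact upper limit there was a share of 0.0155% or a level of 8.69. Its cat and dog sequences were not compared with the mouse one here, so an undercount through sequence differences was not tested.

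miR-191-3p and miR-425-3p, the opposite arms, had 0 reads in all 4 libraries. All 1833 reads of miR-191 were of the 5p arm. A floor of 3 reads for the 3p arm was 0.164% of the 5p reads over the 4 libraries. In the single libraries it was 0.585% in NR and 0.845% in KD cats, and 0.977% in NR and 0.456% in KD dogs. Against a floor of 3 reads, the 5p arm was at least 171-fold higher in NR and 118-fold in KD cats, and 102-fold in NR and 219-fold in KD dogs. A minor arm at 0 was common in this table. Of 23 hairpins with both arms listed and at least 500 reads over the libraries, 10 had no read of the minor arm, the median share of the minor arm was 0.0374%, and the highest was 15.7%. For miR-425, whose 17 reads were also all 5p, the same floor was 17.6% of the 5p reads.

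miR-191-5p and miR-425-5p, although made from 1 transcript, were thus at very unequal levels, and their ratio within a library does not move with the scaling. There were 57.0 reads of miR-191-5p for each read of miR-425-5p in NR cats (exact conditional interval 29.8 to 125), 154 in NR dogs (42.1 to 1273) and 110 in KD dogs (50.1 to 300). In KD cats the ratio was at least 118 against the floor of 3 reads, and the exact lower limit was 95.7. The interval of NR cats overlapped those of the other libraries. Between the cat libraries, however, the log2 ratio of KD to NR in read counts had an upper limit of -0.98 for miR-425-5p. For miR-191-5p its interval was -0.73 to -0.33, and these do not overlap. By this comparison miR-425-5p was lower in KD relative to miR-191-5p, although the intervals of the ratio within each cat library overlap. This was not particular to the pair, since 50 of 65 tested entries also lay below miR-191-5p in KD against NR cats. The comparison rests on 0 against 9 reads of miR-425-5p. Over the summed reads of the 4 libraries the ratio was 108.

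Among 15 listed pairs of miRNAs from 1 cluster, 14 had reads of both members, and none of the other 13 had a larger ratio of summed reads than miR-191/miR-425. Their ratios ran from 1.14 for miR-125a-5p/miR-99b-5p to 68.0 for miR-16-5p/miR-15b-5p, with a median of 17.0. The remaining pair, miR-143-3p/miR-145a-5p, had 328 reads of the first and 0 of the second, so its ratio was at least 109 against the floor of 3 reads, beside 108 for miR-191/miR-425. Some of these rest on few reads as well, since miR-15b-5p had 3 reads in all, and sequence-dependent capture of each miRNA in the library was not tested.

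**Figure D2:**
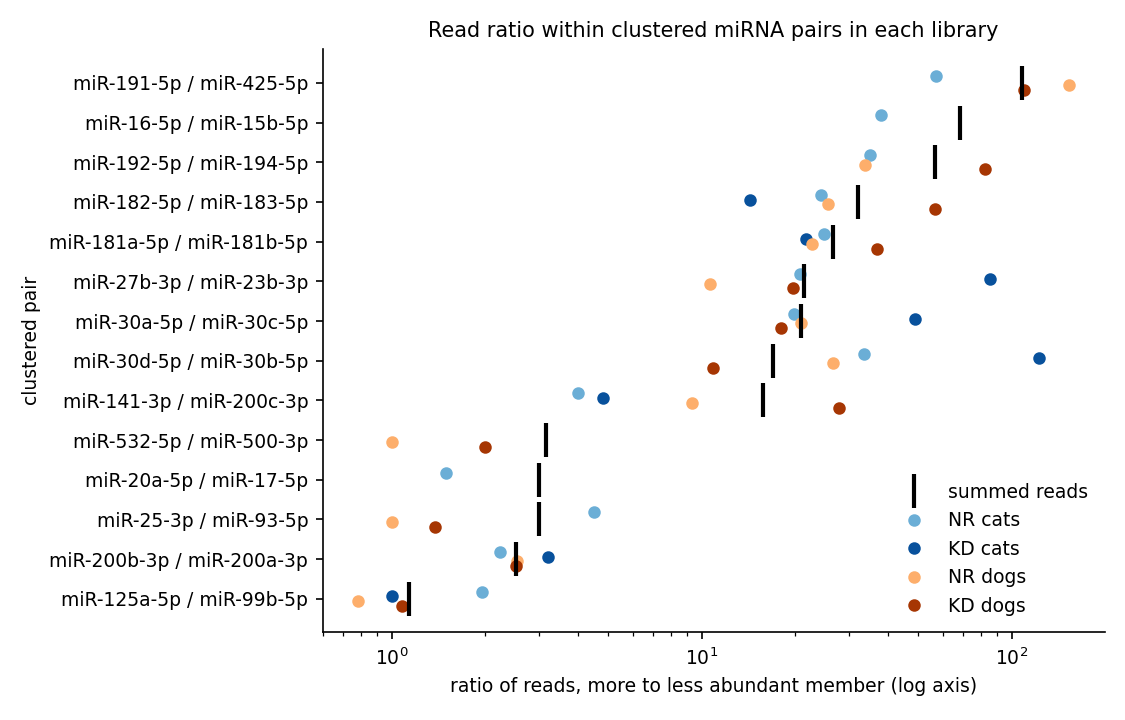
Reads of the more abundant over the less abundant member of 14 clustered pairs on a log axis, with points for the libraries in which both had a read and a black bar for the ratio of summed reads. miR-191-5p/miR-425-5p lies at the top with a bar at 108, and it has no point for KD cats because miR-425-5p had 0 reads there.

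Between KD and NR cats, miR-191-5p was higher in KD on the deposited scale and lower in KD as a share of the reads. The log2 ratio of KD to NR was 0.49 for the deposited level (95% exact conditional interval 0.29 to 0.69), -0.53 for read counts (-0.73 to -0.33) and -0.88 for the share of total reads (-1.08 to -0.68). None of these passed 2-fold. Of the 65 entries with at least 20 reads over both libraries, 53.8% passed 2-fold in either direction on the deposited scale, 73.8% in read counts and 80.0% by total count. Where the total left out miR-10, miR-486 and miR-3107, the log2 ratio was 1.02 (0.83 to 1.22), just past 2-fold.

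Between KD and NR dogs, the deposited level and the read counts were higher in KD and the share was lower. The log2 ratio was 0.72 for the deposited level (0.53 to 0.92), 1.10 for read counts (0.90 to 1.30) and -0.50 by total count (-0.70 to -0.30). Only the ratio of read counts passed 2-fold, where the KD library was also the deepest. Past 2-fold were 54.9% of 71 tested entries on the deposited scale, 70.4% in read counts and 28.2% by total count. With factors from edgeR TMM, which assumes that most entries are alike, the log2 ratio was -0.10, and with the DESeq2 median of ratios it was -0.081, both with intervals that hold 0.

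Between the species, NR cats had 2.81 times the deposited level of NR dogs, a log2 ratio of 1.49 (1.28 to 1.70). The log2 ratio was 0.74 for read counts (0.53 to 0.95) and 0.90 by total count (0.69 to 1.11), but -0.042 with edgeR TMM (-0.25 to 0.17) and 0.017 with the median of ratios (-0.19 to 0.23). Past 2-fold were 71.6% of 67 entries on the deposited scale, 56.7% in read counts and 59.7% by total count. The deposited change of miR-191-5p was therefore among those of a majority.

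KD cats had 2.39 times the deposited level of KD dogs, a log2 ratio of 1.26 (1.07 to 1.45). Read counts gave -0.89 (-1.08 to -0.70) and total count 0.52 (0.33 to 0.71). Past 2-fold were 44.9% of 69 entries on the deposited scale, 79.7% in read counts and 42.0% by total count. Over 6 scalings, the log2 ratio of miR-191-5p ran from -0.88 to 1.02 for KD against NR cats, from -0.50 to 1.10 for KD against NR dogs, from -0.24 to 1.49 for NR cats against NR dogs and from -0.89 to 1.26 for KD cats against KD dogs. Its sign depended on the scaling in each of these 4 comparisons. In KD cats against KD dogs only the read counts, which are not adjusted for library depth, were below 0.

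**Figure D3:**
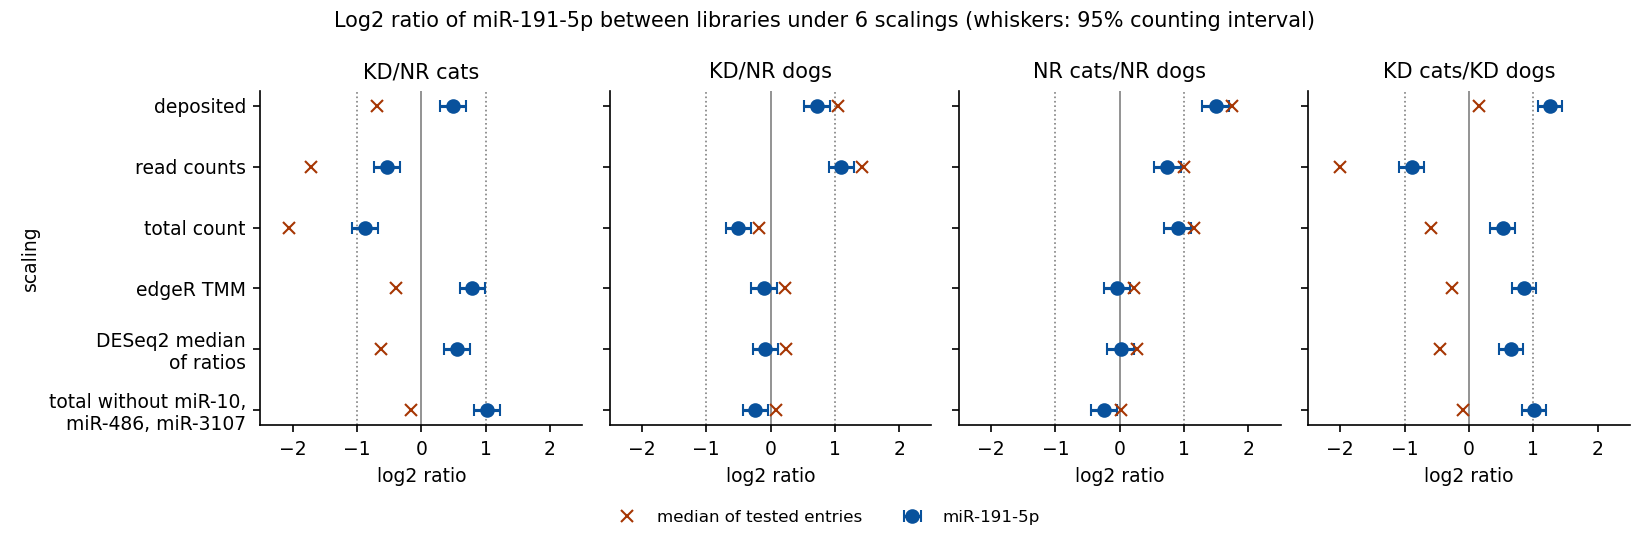
Log2 ratio of miR-191-5p in the 4 comparisons under 6 scalings (circles, whiskers for the 95% counting interval) and the median log2 ratio of the tested entries under the same scaling (crosses), with dotted lines at 2-fold. The circle moves across 0 in every panel, while its distance from the cross stays at 1.18, -0.32, -0.26 and 1.11 from left to right.

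The distance of miR-191-5p from the other entries does not depend on the scaling, since a factor moves all entries of a library together. In KD against NR cats its log2 ratio was 1.18 above the median of the 65 tested entries, with 50 of them below it. In KD cats against KD dogs it was 1.11 above the median of 69, with 56 below it. In the comparisons without the KD cat pool it lay near the median, 0.32 below it in KD against NR dogs, with 22 of 71 entries below, and 0.26 below it in NR cats against NR dogs, with 28 of 67 below. miR-191-5p thus stood above most entries only in the comparisons that used the KD cat library, and these share that library. KD cats was also the library with 86.1% of its reads in miR-10, miR-486 and miR-3107 and with the fewest entries detected, 155. Whether this make-up has a part in the distance was not tested.

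miR-425-5p had 0 reads in KD cats against 9 in NR cats. With 3 reads as the floor for the 0, its deposited level in KD cats was at least 1.47-fold lower, but the exact interval, which also holds the error of the 9 reads, reached a ratio of 1.03. The upper limit was 0.507 in read counts and 0.398 by total count, so whether the interval held no change depended on the scaling. In KD dogs its deposited level was 2.31 times that of NR dogs, from 6 and 2 reads, with an interval of 0.413 to 23.4. In NR cats it was 7.56 times that of NR dogs (1.56 to 71.9), from 9 and 2 reads. By total count the interval was 1.04 to 47.8, but in read counts it was 0.931 to 42.8, which holds no change. It also held no change with edgeR TMM, the median of ratios and the total without miR-10, miR-486 and miR-3107. A difference between KD and NR dogs was not detectable at this depth.

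Steadiness was described as the range of log2(level + 1) over the 4 libraries, ranked among entries with a mean level of at least 10, with place 1 for the smallest range. In read counts miR-191-5p was in place 1 of 68, with a range of 1.10 against a median of 2.59, so that its highest library had 2.14 times the reads of its lowest. Read counts are not adjusted for library depth, which ran from 18704 to 63355 mature miRNA reads. As a share of total reads it was in place 11 of 45, with a range of 1.39 and a highest over lowest of 2.64. On the deposited scale it was in place 28 of 68, with a range of 1.98 against a median of 2.40, and the level in KD cats was 3.95 times that in NR dogs.

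With the other scalings its place lay in between, while its range was smaller than on any of these scales. It was in place 7 of 41 with edgeR TMM (range 0.85), 5 of 66 with the median of ratios (0.65) and 16 of 81 with the total that leaves out miR-10, miR-486 and miR-3107 (1.02). Ranked over the same 68 entries throughout, which was chosen after seeing the data, it was in place 1 in read counts and 16 by total count. Without the NR cat library its place on the deposited scale was 46 of 68, against 27 to 31 without any of the others. In read counts, leaving out 1 library gave places 3, 9, 5 and 5 of 68.

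**Figure D4:**
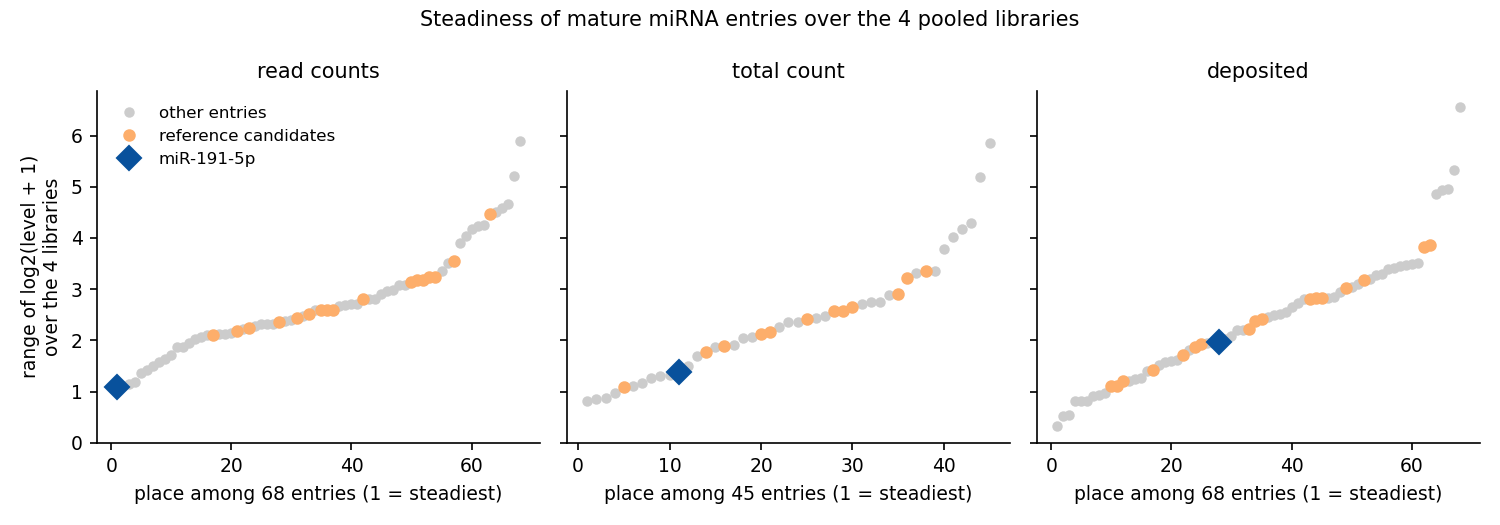
Range of log2(level + 1) over the 4 libraries for each ranked entry, ordered from the steadiest, in read counts, by total count and on the deposited scale, with miR-191-5p as a diamond and reference candidates in orange. The diamond is in place 1 of 68, 11 of 45 and 28 of 68.

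The list of reference candidates used in miRNA PCR held 22 names, with 29 entries in the table. No entry of the list had more reads than miR-191-5p in any library, 21 had a read in every library and 6 had more than 50 in every library. miR-30e-5p, a member of the miR-30 family that is abundant in kidney tubules, had 232 reads in NR and 78 in KD cats, and 145 in NR and 359 in KD dogs. miR-16-5p, which is abundant in red blood cells, had 114, 12, 20 and 58 reads in the same order at its chromosome 3 entry. miR-103-3p at its chromosome 11 entry had 2, 7, 2 and 3 reads, and miR-423-5p had 22, 23, 27 and 138.

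Many of the candidates moved between the kidney states. On the deposited scale, 10 of the 16 candidates tested in cats passed 2-fold, 1 higher and 9 lower in KD, with a median log2 ratio of -1.17 against -0.69 over all tested entries. In dogs 11 of 16 passed, all higher in KD, with a median of 1.27 against 1.04. By total count 14 of 16 passed in cats and 3 of 16 in dogs. These shares stand beside the background of 53.8% and 54.9% on the deposited scale and of 80.0% and 28.2% by total count. Nothing particular to the list is read from them. In KD against NR cats 15 of the 16 candidates lay below miR-191-5p, beside 50 of all 65 tested entries. In KD against NR dogs 2 of 16 did, beside 22 of 71. A library factor cannot change this order.

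Candidates with a smaller range than miR-191-5p over the 4 libraries depended on the scaling as well. There were 0 of 17 ranked in read counts, 1 of 12 by total count (miR-423-5p) and 7 of 17 on the deposited scale, among them both entries of miR-26a-5p, both of miR-181a-5p, miR-186-5p, miR-30e-5p and miR-423-5p. With edgeR TMM they were miR-30e-5p and miR-186-5p, and with the median of ratios miR-30e-5p alone. With the total that leaves out miR-10, miR-486 and miR-3107 they were 6 of 18. miR-30e-5p had a deposited log2 ratio of -0.55 in KD against NR cats and 0.93 in KD against NR dogs, and miR-186-5p had -0.48 and 1.15. Neither passed 2-fold in cats.

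The entry whose level followed miR-191-5p most closely was miR-151-3p. Likeness was the SD over the 4 libraries of the log2 ratio of an entry to miR-191-5p, among 29 other entries with a mean normalized level of at least 50, a measure that does not move with the scaling.
miR-151-3p: cTAGACTGaggctccttgagg
miR-30a-5p: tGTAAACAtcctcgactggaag
miR-151-3p, shown with the next entry because these were the closest, had 151 reads in NR and 147 in KD cats, and 129 in NR and 281 in KD dogs. Its ratio to miR-191-5p was 0.294 in NR cats (0.244 to 0.354), 0.414 in KD cats (0.339 to 0.503), 0.420 in NR dogs (0.339 to 0.518) and 0.427 in KD dogs (0.370 to 0.492), with an SD of 0.26 on the log2 scale. The last 3 libraries overlapped in their intervals, and NR cats were lower than KD dogs.

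miR-30a-5p, a member of the miR-30 family, was next with an SD of 0.31. Its counts were 1034 in NR and 585 in KD cats, and 756 in NR and 1749 in KD dogs, or 2.02, 1.65, 2.46 and 2.66 reads for each read of miR-191-5p. The cat ratios were below the dog ratios, although the intervals of the NR libraries overlapped (1.81 to 2.25 in cats and 2.15 to 2.82 in dogs). Next came miR-30e-5p (0.58), the chromosome X entry of let-7f-5p (0.59) and miR-27b-3p (0.59). The same list was not made for miR-425-5p, since it had 0 reads in KD cats.

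A measure added after seeing the data was the mean SD of the log2 ratio of an entry to each of the other 29, which also does not move with the scaling. It was 1.06 for miR-191-5p, in place 9 of 30. The lowest was that of miR-30e-5p at 0.93, followed by miR-186-5p at 0.96 and miR-30a-5p at 0.96, so the distances between these entries were small.

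When the other miRNAs of the PCR panel were divided by miR-191-5p, most were lower in KD cats and some were higher in KD dogs. That panel also held miR-191 itself, and the paper reported its raw PCR level in individual cats as significantly lower in KD. It named no such decrease of miR-191 after normalization to urinary creatinine or urinary RNA. Over all cats, however, it listed negative correlations of raw miR-191 with blood urea nitrogen and serum creatinine. It also listed one of miR-191 per urinary RNA with serum creatinine. The panel had 15 entries in the table, with miR-3107-5p, a copy of miR-486, counted among them. let-7f-5p, miR-26a-5p and miR-181a-5p each had entries on different chromosomes for the same mature sequence. The counts below are thus of entries and not of separate miRNAs. In KD against NR cats 10 were past 2-fold lower relative to miR-191-5p and 4 higher, with a median log2 ratio of -1.22 against -1.20 over all tested entries. In the background, 56.2% of 64 entries were past 2-fold lower and 14.1% higher. In KD against NR dogs 0 panel entries were past 2-fold lower and 6 higher, with a median of 0.49 against 0.33, and in the background 7.14% of 70 entries were lower and 24.3% higher. The panel was in part chosen by the study for its change in these cat libraries, so these counts are no independent evidence of direction.

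Relative to miR-191-5p, miR-22-3p had a log2 ratio of KD to NR of -2.47 in cats (-2.77 to -2.16) and 0.13 in dogs (-0.14 to 0.41). Cats had 1269 of its reads in the NR and 159 in the KD library, while dogs had 305 and 717. miR-21a-5p, the mouse name of a miRNA known for its part in kidney fibrosis, had -1.501 in cats (-1.83 to -1.17) and 1.31 in dogs (1.02 to 1.60). miR-146a-5p, an inflammation-related miRNA, had -1.35 in cats and 2.20 in dogs, where NR had only 11 reads. These 3 entries thus differed between the species in direction or in size, which was not tested.

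The miR-10 and miR-486 entries were on the other side. miR-10b-5p had a log2 ratio relative to miR-191-5p of 1.70 in cats (1.501 to 1.90) and 0.39 in dogs (0.19 to 0.59). miR-486-5p, a miRNA abundant in red blood cells, had 2.43 in cats (2.17 to 2.69) and 3.07 in dogs (2.76 to 3.39). let-7b-5p, a member of the let-7 family, had -1.64 in cats and 1.64 in dogs from 3 to 20 reads per library, and the dog interval of -0.12 to 3.40 holds 0.

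**Figure D5:**
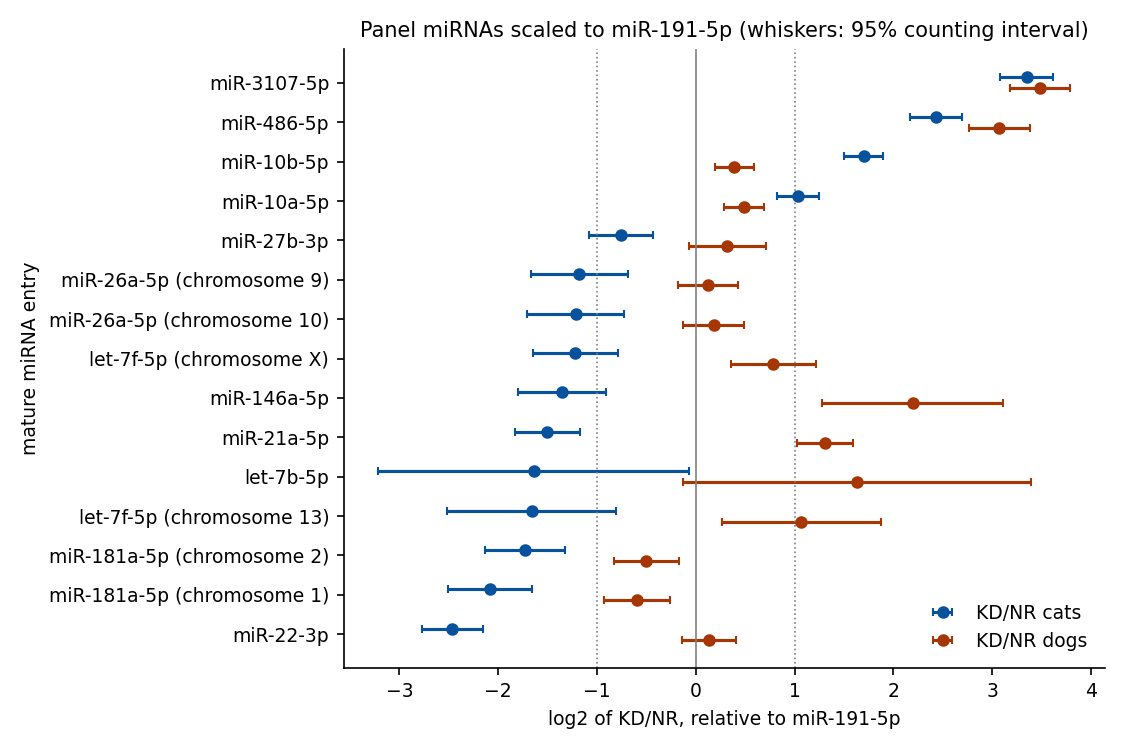
Log2 ratio of KD to NR for 15 panel entries, each divided by miR-191-5p in its own library, in cats (blue) and dogs (red), with whiskers for the 95% counting interval and dotted lines at 2-fold. In cats 10 entries lie past 2-fold on the lower side and 4 on the upper side, and in dogs 0 and 6.

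With another reference the cat panel counts changed. With miR-30a-5p 7 entries were past 2-fold lower in KD cats and 4 higher, with miR-151-3p 11 and 3, and with the total reads 11 and 2. The panel median stayed close to that of all tested entries, at -0.929 against -0.907, -1.712 against -1.690 and -2.098 against -2.075 in the same order. Nothing particular to the panel is read from these counts. The sum of miR-191-5p and miR-425-5p gave 10 and 4, the same counts as miR-191-5p alone. It could hardly differ, since miR-425-5p added at most 9 reads to a library, and nothing is read from it. miR-425-5p could not serve in cats, as it had 0 reads in KD cats, and in dogs it rested on 2 and 6 reads.

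Marker miRNAs of other cell types also moved between the libraries. The 5 red blood cell entries summed to 2.66% of the reads in NR and 5.16% in KD cats, and 0.838% in NR and 4.19% in KD dogs. Most of these reads were miR-486-5p, while miR-451a, a defining red blood cell miRNA, had 32, 1, 8 and 20 reads, and miR-144-3p was at 0 in all but NR cats. The 4 white blood cell entries summed to 2.39%, 0.265%, 0.0287% and 0.193%, with miR-142-3p at 0 in all but NR cats, miR-223-3p at 0 in KD cats and NR dogs and miR-150-5p at 0 in NR dogs. Nearly all of these reads were miR-142-5p, at 415, 62, 6 and 112 reads, so this sum rests mainly on 1 miRNA. The 5 kidney tubule entries, which include miR-30a-5p, summed to 6.22%, 2.57%, 5.24% and 4.02%, with both entries of miR-194-5p at 0 in KD cats. The 4 urinary epithelium entries summed to 0.364%, 0.303%, 0.383% and 0.248%. The tubule sum was mostly miR-30a-5p, and without it, an alternative chosen after seeing the data, the other 4 entries summed to 0.695% in NR and 0.114% in KD cats, and 1.61% in NR and 1.26% in KD dogs. NR cats thus had the largest share of white blood cell reads, of the 5 kidney tubule entries and of miR-191-5p. On the deposited scale KD cats were highest for miR-191-5p, and in read counts KD dogs were. The summed tubule entries other than miR-30a-5p had a higher share in both dog libraries than in the cat libraries. Most of that sum was miR-192-5p, with 70 reads in NR and 19 in KD cats, and 304 in NR and 737 in KD dogs. miR-204-5p did not follow it, with 53, 8, 22 and 40 reads in the same order. The part of these cells in the level of miR-191-5p was not tested, and in a pool more vesicles of a cell type and more miR-191 per vesicle cannot be told apart.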

How the data were processed

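Urinary exosome RNA of each group was pooled, and 1 small RNA library per group was sequenced. The authors removed adaptors and very short reads, aligned cat and dog reads to mouse mm10 with Bowtie 1.0.0, allowing many locations per read, and deposited read counts per mouse small RNA feature beside log2 values that they normalized by TMM in StrandNGS. CASAVA 1.8.2 is named in the notes of the submitters on processing. The deposited log2 value was the log2 count shifted by 1 constant in each library. In NR dogs 47 entries with reads, and in KD dogs 31, were written as 0, so levels were computed here as count times factor. There were 4 emptied lines, not analysed here, and 275 entries had a read.

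Ratios have exact conditional (Clopper-Pearson) intervals and shares exact binomial ones, at 95%. Ratios relative to a reference have log-normal counting intervals. All cover counting error only. For log2 ratios 1 read was added to both libraries only where a count was 0. Entries with at least 20 reads over both libraries were tested against a fold of 2, without p-values. Alternatives were read counts, total count, edgeR 4.0.16 TMM, DESeq2 1.42.0 median of ratios (both for factors only), the total without miR-10, miR-486 and miR-3107, a pseudocount of 0.5, minimum reads of 100 and 1, folds of 1.5 and 3, other filters and other references. Named were the members, the reference candidates, the study's PCR panel, the 5 entries most like miR-191-5p, clustered pairs and cell type markers. miR-711, miR-1964-5p and miR-489-3p were named as the nearest entries in position or sequence. Members and lists were chosen with earlier results of these data known. The scripts were tested on simulated counts. Python 3.11.15, numpy 2.4.6, pandas 2.3.3, scipy 1.17.1, matplotlib 3.10.9 and R 4.3.3 were used.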

Additional observations from a re-analysis of the deposited data

Results flagged for a closer look

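miR-191-5p had opposite directions in cats and dogs in read counts. The log2 ratio of KD to NR was -0.53 in cats and 1.10 in dogs, a dog minus cat difference of 1.63, and this difference was not tested. This was the 1 scaling with cats lower and dogs higher. With edgeR TMM, the median of ratios and the total without miR-10, miR-486 and miR-3107 cats were higher and dogs lower, with differences of -0.90, -0.64 and -1.26, and the dog interval held 0 under the first and second of these. The directions were alike under the deposited scaling (0.49 and 0.72) and by total count (-0.88 and -0.50).

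miR-425-5p had opposite directions on the deposited scale. The log2 ratio with 1 read added was -2.30 in cats, from 0 and 9 reads, and 1.21 in dogs, from 6 and 2 reads, a difference of 3.51 that was not tested. The directions were opposite under 5 of 6 scalings.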

How the results depend on the processing

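The direction of every miR-191-5p difference depended on the scaling. For KD cats against KD dogs it differed only in read counts, which are not adjusted for library depth. For KD against NR cats the deposited log2 ratio of 0.49 became -0.53 in read counts, -0.88 by total count, 0.79 with edgeR TMM and 1.02 with the total without miR-10, miR-486 and miR-3107. For KD against NR dogs 0.72 became 1.10 in read counts, -0.50 by total count, -0.10 with edgeR TMM, -0.081 with the median of ratios and -0.24 with the reduced total. For NR cats against NR dogs 1.49 became 0.74, 0.90, -0.042, 0.017 and -0.24 in the same order, and for KD cats against KD dogs 1.26 became -0.89, 0.52, 0.85, 0.66 and 1.02. These shifts are the differences between the library factors. The place of miR-191-5p by steadiness, 28 on the deposited scale, was 1 in read counts, 11 by total count, 7 with edgeR TMM, 5 with the median of ratios, 16 with the reduced total, 13 with a mean level of at least 50 and 166 of 275 with no filter. Over the same 68 entries it was 1, 16, 9, 5 and 15, and it was 9 by the mean SD to other entries. These last 6 values were added after seeing the data. Leaving out 1 library in turn gave places 27 to 46. With total reads as the reference 2 panel entries were past 2-fold higher in cats, against 4, and 2 lower in dogs, against 0, and with miR-425-5p 1 was lower in dogs. Of all tested entries by total count, 4 of 65 were past 2-fold higher in cats and 12 of 71 lower in dogs.

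The count of entries past 2-fold stayed within 1.5 times of the deposited value under 24 of 40 alternatives and ran from 12 to 163. For KD against NR cats 35 became 14 with at least 100 reads, 110 with no filter and 21 past 3-fold. For KD against NR dogs 39 became 20, 19, 19 and 18 by total count, edgeR TMM, median of ratios and reduced total, 16 with at least 100 reads, 121 with no filter and 20 past 3-fold. For NR cats against NR dogs 48 became 24 with at least 100 reads and 163 with no filter. For KD cats against KD dogs 31 became 55 in read counts, 12 with at least 100 reads, 115 with no filter and 15 past 3-fold. No paired analysis was possible because each group had 1 pooled library. Depth limits miR-425-5p, at 0 to 9 reads, and both 3p arms, at 0.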
